A study of Mus musculus with 3 samples.

Results

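The regions described here are the centromere-proximal 3 Mb of the 19 mouse autosomes, read in DamID profiles of mouse embryonic fibroblasts. Mouse chromosomes carry the centromere at one end, at low coordinates. On chromosomes 1 to 19 every fragment that started less than 3 Mb after the start of the first fragment of its chromosome was taken. The rule used position only and no measured value. It gave 19 windows with 147671 of 5972890 autosomal fragments, or 5674 of 239460 bins of 10 kb. The first fragment began at position 3000005 on 10 chromosomes and at 3002122 at the latest (chromosome 11), in build mm9, counted from 1. All cells were wild-type C57BL/6 mouse embryonic fibroblasts, cultured connective tissue cells of the embryo, which received a murine retrovirus. The virus expressed Dam fused to Lamin A in the group Dam-Lamin A, Dam fused to Lap2b in the group Dam-Lap2b, and unfused Dam in the group Dam Only. Each group had 1 sample, so no difference between the fusions has a replicate check and no p-value was computed. The labels gave neither the promoter of the cassette nor a culture time, and methylation was averaged over all cells of a culture.

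DamID reads contact between DNA and a nuclear protein as adenine methylation. The bacterial enzyme Dam, tethered to the protein, methylates the adenine of GATC nearby, and the pieces between methylated sites are then amplified for sequencing. Lamin A forms filaments of the nuclear lamina, the protein layer under the nuclear envelope, whereas Lap2b spans the inner nuclear membrane and binds lamins. Lamina-associated domains (LADs) are long stretches of chromatin that touch this layer and hold few active genes. In mouse nuclei the satellite repeats around centromeres gather in heterochromatic clusters, the chromocentres, many of which lie at the nucleolus or at the nuclear edge. The satellites themselves are missing from the assembly, so the windows are the unique sequence next to them. The design addressed where the genome contacts each of the 2 proteins, and the windows show this for the sequence nearest the centromeres.

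The profiles held 1 log2 value per fragment, of the form log2 of fusion reads over reference reads with 1 read added to each, plus a constant. The reference was presumed to be the Dam Only library. A fragment with equal numbers in both takes the constant, 0.085 in the Dam-Lamin A profile and 0.022 in the Dam-Lap2b profile, so values just above 0 need not mean more fusion reads. Smallest whole numbers of reads that fit both profiles, lower bounds of the true ones, summed in the windows to 2680497 from the Dam-Lamin A library, 3201074 from Dam-Lap2b and 3730513 from the reference. The median fragment of the windows held 8, 9 and 8 reads, against 10, 10 and 8 in the rest of the autosomes. A bin of the windows held a median of 25 fragments. The standard error of its mean over fragments was 0.25 (median) in the Dam-Lamin A profile and 0.19 in the Dam-Lap2b profile. Elsewhere on the autosomes, profiles and LAD lists went together crosswise. Where the Dam-Lamin A list stood alone, bins averaged −0.04 in the Dam-Lamin A profile but 0.45 in the Dam-Lap2b profile. Where the Dam-Lap2b list stood alone, they averaged 0.35 in the Dam-Lamin A profile and −0.01 in the Dam-Lap2b profile. Profiles and lists are therefore named by their labels. Whether the profiles or the lists carry each other's label was not tested. Exchanged profiles would turn the sign of each Dam-Lamin A minus Dam-Lap2b value below, and exchanged lists would swap their shares.

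Centromere-proximal sequence did not share a common level of lamina contact. The windows of chromosomes 14, 1, 3 and 9 were strongly above 0 in both profiles, and those of chromosomes 19, 11 and 2 were strongly below. Over the 19 chromosomes the windows averaged −0.08 ± 0.78 (SD over chromosomes) in the Dam-Lamin A profile and 0.09 ± 0.85 in the Dam-Lap2b profile. The rest of the same chromosomes averaged 0.18 ± 0.13 and 0.25 ± 0.17. The window lay above the rest of its chromosome on 6 chromosomes in the Dam-Lamin A profile and on 8 in the Dam-Lap2b profile. On 6 chromosomes (1, 3, 4, 8, 9 and 14) it was above in both, and on 11 it was below in both. Of the 11, chromosomes 6 and 10 were almost level in the Dam-Lap2b profile, at −0.0005 and −0.003. The Dam-Lap2b count of 8 became 10 without fragments at the constant of both profiles and with weights by fragment length. The Dam-Lamin A count stayed at 6 in these settings. The mean difference, −0.26 ± 0.73 and −0.16 ± 0.76, was smaller than its SD over chromosomes in both profiles. With the first 5 Mb as the window it was −0.13 and −0.006. In the Dam-Lap2b profile it was −0.08 without chromosome 19 and −0.10 without chromosome 11.

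**Figure D1:**
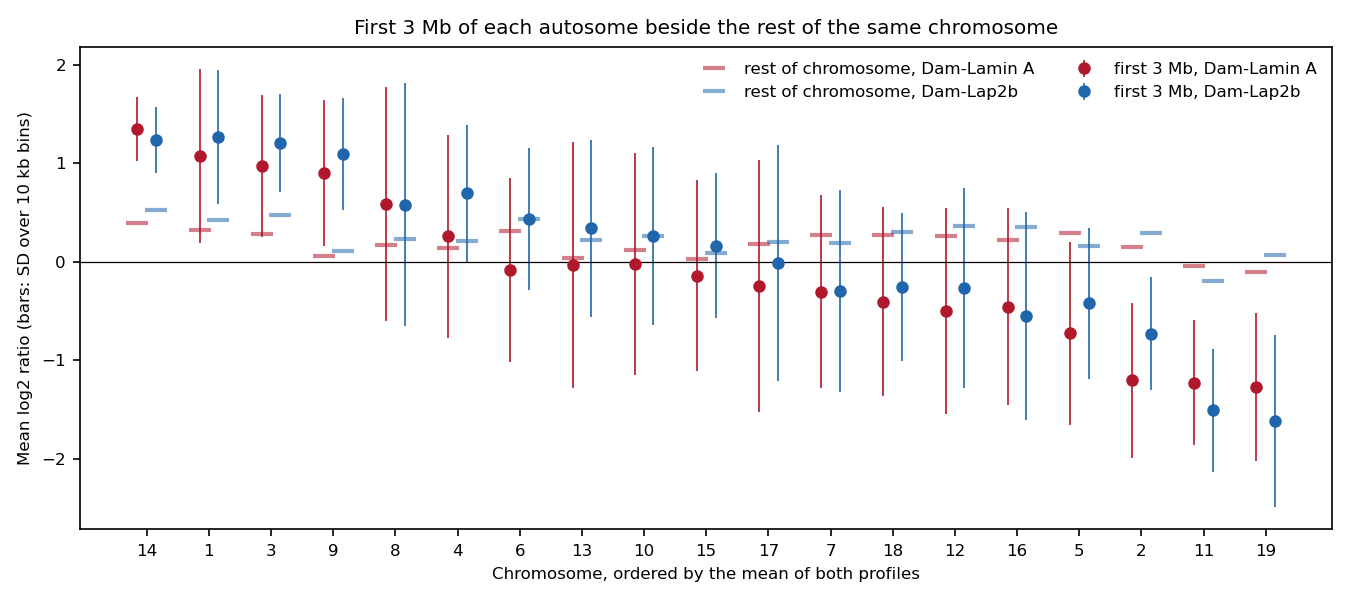
Mean log2 ratio of the first 3 Mb (points, with bars for the SD over 10 kb bins) and of the rest of the chromosome (dashes) for each autosome, in the Dam-Lamin A and Dam-Lap2b profiles. Window means run from 1.35 (chromosome 14, Dam-Lamin A) and 1.26 (chromosome 1, Dam-Lap2b) down to −1.27 and −1.62 on chromosome 19, while the rest of the chromosomes stays between −0.20 and 0.52.

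This spread is what 3 Mb pieces of the autosomes show in general. When all autosomes were tiled in 3 Mb from the first fragment, the 784 other tiles had an SD of 0.79 and 0.86, beside 0.78 and 0.85 for the 19 windows. The window was the highest tile of no chromosome. It was the lowest on chromosomes 11 and 19 in the Dam-Lamin A profile and on chromosome 19 in the Dam-Lap2b profile. On average 40.4% and 43.8% of the other tiles of a chromosome lay below its window. By bins, 49.0% of window bins were above 0 in the Dam-Lamin A profile, where 54.2% of all autosomal bins were. In the Dam-Lap2b profile 55.2% were above 0, where 57.7% of all bins were. Bins above 0 in both profiles made up 47.2% of the windows against 51.3% of all bins, and bins below 0 in both made up 43.0% against 39.4%. These shares are near the background. The window means of the 2 profiles followed each other with a Pearson's r of 0.959 over 19 chromosomes. The profiles share the reference, which by itself makes them correlate.

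The window of chromosome 14 (3000005 to 6000004) was the highest of the 19 in the mean of both profiles and the most even. It averaged 1.35 ± 0.32 (SD over bins) in the Dam-Lamin A profile and 1.24 ± 0.34 in the Dam-Lap2b profile, where only chromosome 1 was higher. All of its 287 bins were above 0 in both profiles, with the lowest bin at 0.04 and 0.11. The 6 steps of 500 kb lay between 1.27 and 1.44 in the Dam-Lamin A profile and between 1.17 and 1.29 in the Dam-Lap2b profile. Among the 41 tiles of 3 Mb on chromosome 14 it still ranked only 8 and 11 from the top. In the gene order of GRCm38.p6 in RefSeq, this end of chromosome 14 opens with a long row of predicted genes known by number only (Gm2888, Gm2897, Gm10340, Gm5795). RefSeq names are given here for the gene order at a chromosome end alone. That assembly is not mm9, and no gene was placed on the windows.

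Chromosomes 1, 3 and 9 were the other 3 on which all 500 kb steps of the window were above 0 in both profiles. The window of chromosome 1 (3000539 to 6000538) averaged 1.08 ± 0.88 and 1.26 ± 0.68. Its level fell to 0.28 and 0.58 in the step from 1.5 to 2 Mb and returned to 1.58 and 1.55 in the last step. Chromosome 3 (3000792 to 6000791) averaged 0.97 ± 0.72 and 1.20 ± 0.50, and its lowest step, from 2 to 2.5 Mb, held 0.06 and 0.58. Chromosome 9 (3000005 to 6000004) averaged 0.90 ± 0.74 and 1.09 ± 0.57 and ranked 6 and 5 among 40 tiles. The first coding genes of chromosome 1 in RefSeq order are Xkr4, Rp1, a photoreceptor gene, and Sox17, an endoderm transcription factor. On chromosome 3 they are Hnf4g, a nuclear receptor, and Zfhx4, a large zinc-finger homeobox factor. On chromosome 9 they are Alkbh8, a tRNA-modifying enzyme, Cwf19l2, and Gucy1a2, a subunit of guanylate cyclase.

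At the other extreme, the window of chromosome 19 (3000005 to 6000004) averaged −1.27 ± 0.76 and −1.62 ± 0.87. It ranked last of 19 tiles in both profiles, and 92% of its bins were below 0 in both. The window was split near its start. The first 100 kb averaged 0.67 and 0.52. From 3250005 to the end of the window at 6000004, 2750 kb without interruption were below 0 in both profiles, at −1.43 ± 0.54 and −1.80 ± 0.65. The coding genes nearest this end in RefSeq order are Ighmbp2, a helicase, Mrpl21, a mitochondrial ribosomal protein, and Cpt1a, which brings fatty acids into mitochondria. Chromosome 11 (3002122 to 6002121) averaged −1.23 ± 0.64 and −1.51 ± 0.63, with 96.7% of bins below 0 in both profiles and 1 bin above 0 in both. Its 6 steps lay between −1.49 and −1.11 in the Dam-Lamin A profile and between −1.74 and −1.32 in the Dam-Lap2b profile. RefSeq order there opens with Sfi1, a centrosome protein, the predicted gene Gm51877, Eif4enif1, which represses translation, and Drg1, a GTPase.

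Chromosome 2 (3000019 to 6000018) was low as well, at −1.21 ± 0.79 in the Dam-Lamin A profile and −0.73 ± 0.57 in the Dam-Lap2b profile. Bins below 0 in both profiles made up 86.3% of it. RefSeq order at this end opens with Fam171a1, Nmt2, an enzyme that attaches myristate to proteins, and Rpp38. Chromosome 2 had the largest fall from the rest of its chromosome in the Dam-Lamin A profile, −1.36, and chromosome 19 in the Dam-Lap2b profile, −1.69. The largest rise was 0.95 on chromosome 14 and 0.98 on chromosome 9. Chromosomes 2, 11 and 19 were the only 3 on which each 500 kb step of the window was below 0 in both profiles.

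Between these groups the windows were mosaics. Chromosome 8 averaged 0.59 ± 1.19 and 0.58 ± 1.23, with −0.77 and −0.69 in the first 500 kb and 1.35 and 1.48 in the last. Chromosome 4 averaged 0.26 ± 1.03 and 0.70 ± 0.69, and its end of the chromosome begins with the pheromone receptor genes Vmn1r2 and Vmn1r3 in RefSeq order. On 4 chromosomes the sign of the window mean differed between the profiles, each time below 0 in the Dam-Lamin A profile and above 0 in the Dam-Lap2b profile. Chromosome 6 averaged −0.08 ± 0.94 and 0.44 ± 0.72, and chromosome 10 averaged −0.02 ± 1.13 and 0.26 ± 0.90. Chromosome 13 averaged −0.03 ± 1.25 and 0.34 ± 0.90, and chromosome 15 averaged −0.14 ± 0.97 and 0.16 ± 0.73. In these windows the means lay well within the SD over bins. Their sign also rests on where 0 lies in each profile. With the profiles scaled to a median of 0 and equal SD, the mean of Dam-Lamin A minus Dam-Lap2b over all windows became 0.02. The remaining windows, on chromosomes 5, 7, 12, 16, 17 and 18, averaged −0.73 to −0.25 in the Dam-Lamin A profile and −0.55 to −0.01 in the Dam-Lap2b profile.

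**Figure D2:**
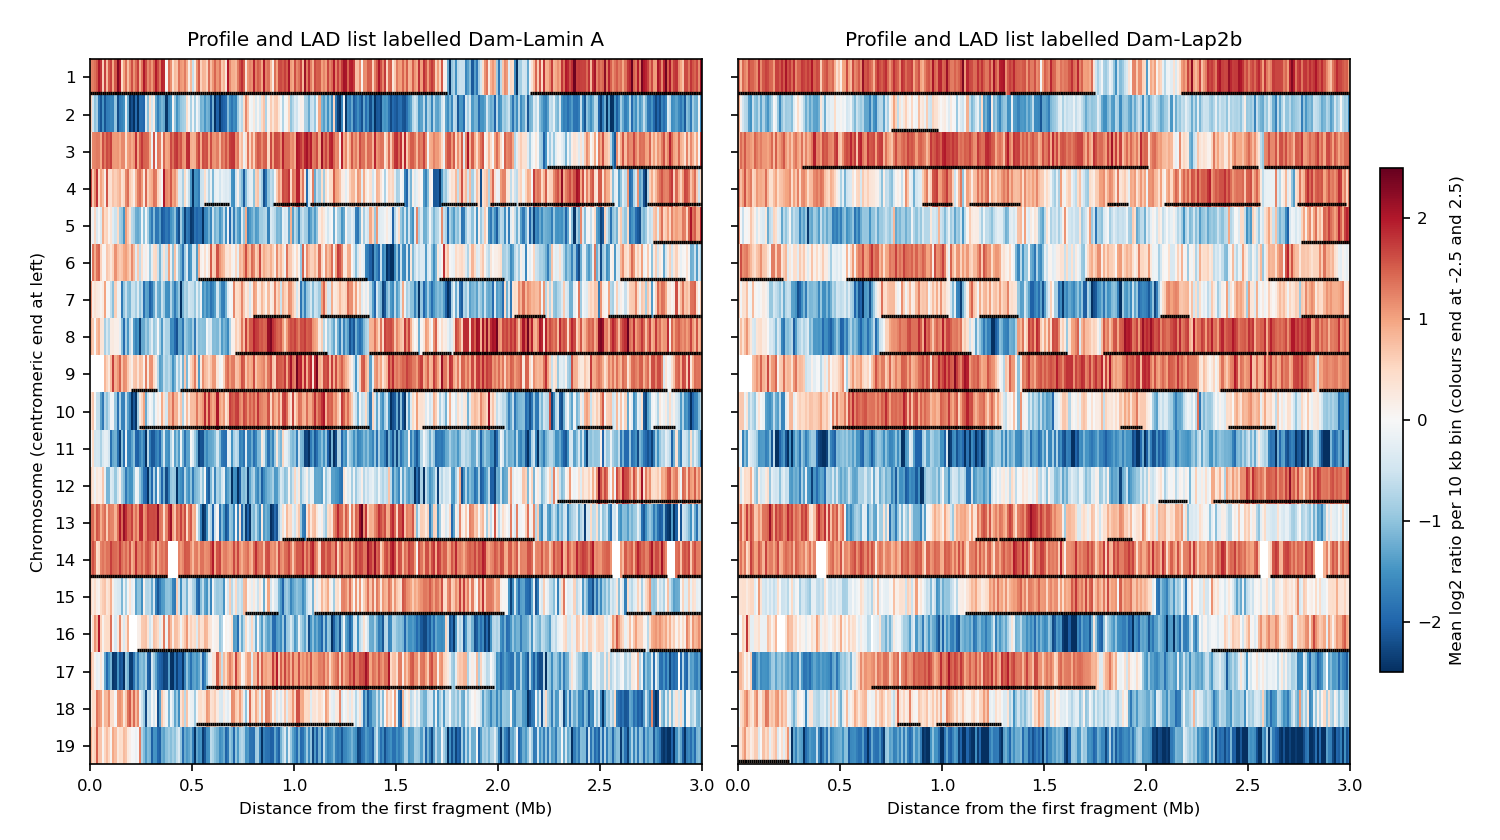
Mean log2 ratio of each 10 kb bin (colour, red above 0 and blue below) in the first 3 Mb of the 19 autosomes, with the listed LADs of the same label as black lines under each row and bins without enough fragments in white. Chromosome 14 is red throughout and chromosomes 11 and 19 are blue beyond their starts. On chromosome 13 the red first 520 kb carries no black line in either panel.

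Neighbouring bins with the same sign in both profiles were joined into runs over all windows, and most runs were short. Runs of bins above 0 in both numbered 357, with a median of 20 kb, and 54 were 100 kb or longer. Runs below 0 in both numbered 317, also with a median of 20 kb, and 54 were as long. No count of runs in the rest of the autosomes is set beside these. The longest runs above 0 lay on chromosome 14 at 3430005 to 5560004 (2130 kb, mean 1.35 and 1.24), chromosome 8 at 4780005 to 6000004 (1220 kb, 1.41 and 1.5) and chromosome 1 at 3510539 to 4480538 (970 kb, 1.29 and 1.5). Chromosome 17 at 3800422 to 4760421 (960 kb, 1.16 and 1.31) and chromosome 3 at 3760792 to 4650791 (890 kb, 1.33 and 1.44) followed. The longest runs below 0, after that of chromosome 19, lay on chromosome 2 at 4250019 to 5480018 (1230 kb, −1.36 and −0.93) and chromosome 11 at 4572122 to 5502121 (930 kb, −1.22 and −1.55). Next came chromosome 11 at 3952122 to 4562121 (610 kb, −1.43 and −1.52) and chromosome 7 at 3140005 to 3680004 (540 kb, −1.1 and −1.13). Both ends of the run on chromosome 14 met stretches without fragments, 50.3 and 50.1 kb long, so that it was broken by missing bins and not by low ones. The runs of chromosomes 8 and 19 reached the end of the window.

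With distance from the centromeric end no steady course appeared over the 3 Mb. In steps of 500 kb the mean over 19 chromosomes lay between −0.28 and 0.06 in the Dam-Lamin A profile and between −0.04 and 0.23 in the Dam-Lap2b profile, with SDs of 0.89 to 1.09 over chromosomes. Beyond the window the means rose to 0.43 ± 0.81 and 0.70 ± 0.68 at 4.5 to 5 Mb and were at −0.24 ± 0.87 and −0.004 ± 0.86 at 5.5 to 6 Mb. The window was below the next 3 Mb of its chromosome on 9 chromosomes in the Dam-Lamin A profile and on 10 in the Dam-Lap2b profile.

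The mean of the outermost 100 kb was above 0 in both profiles on 14 of 19 chromosomes, where 51.5% of all 100 kb tiles of the autosomes were. This held for 10 chromosomes from 100 to 200 kb, for 6 to 8 in the steps from 200 to 700 kb, and again for 11 in each step from 700 to 1000 kb. The mean over chromosomes was 0.42 ± 0.70 in the Dam-Lamin A profile and 0.46 ± 0.60 in the Dam-Lap2b profile in the first 100 kb. It was −0.37 ± 1.07 and −0.22 ± 1.07 from 400 to 500 kb, and 0.32 ± 1.01 and 0.33 ± 1.14 from 900 to 1000 kb, so that all these steps overlapped in their spread. Chromosome 1 (1.39 and 1.31), chromosome 3 (1.24 and 1.21), chromosome 13 (1.23 and 1.14) and chromosome 14 (1.18 and 1.1) were highest in the first 100 kb. Chromosome 2 (−1.28 and −0.65), chromosome 11 (−0.31 and −0.70), chromosome 17 (−0.35 and −0.17) and chromosome 10 (−0.56 and −0.09) were below 0 in both, and chromosome 12 had −0.04 and 0.10. On chromosome 9 the value rested on 61 fragments, against 190 to 328 on the others. With the profiles scaled to a median of 0, 9 chromosomes were above 0 in both, where 46.3% of tiles were. Fragments at the constant of both profiles, for which the smallest fit is no read in any library, made up 4.25% of the first 100 kb, and 14 chromosomes were still above 0 without them.

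**Figure D3:**
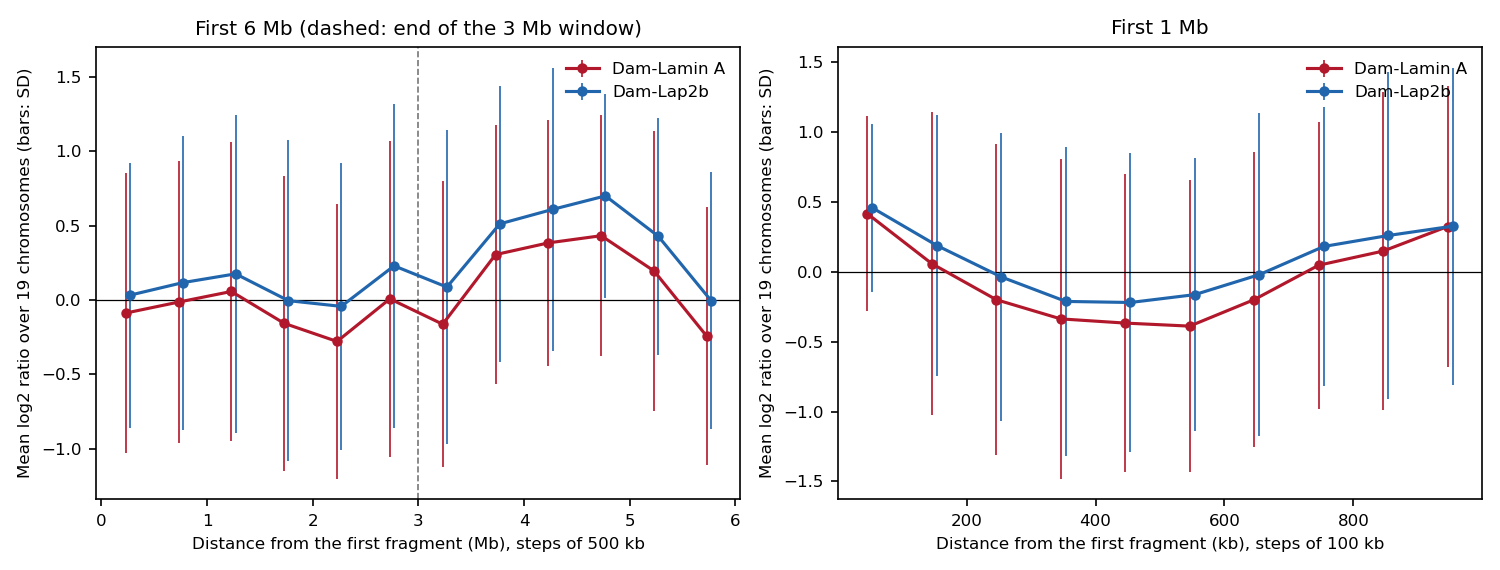
Mean log2 ratio over the 19 autosomes with distance from the first fragment, in steps of 500 kb over the first 6 Mb (left) and of 100 kb over the first 1 Mb (right), with bars for the SD over chromosomes. The first 100 kb stand at 0.42 and 0.46, and the 5 steps from 200 to 700 kb lie below 0 in both profiles, between higher steps on either side.

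The reads behind the ratios showed which library varied between windows. Reference reads per kb ranged from 23.7 on chromosome 14 to 157.5 on chromosome 11. Dam-Lamin A reads ranged from 32.4 on chromosome 12 to 63.5 on chromosome 11, and Dam-Lap2b reads from 35.3 on chromosome 7 to 81.0 on chromosome 4. On the log2 scale the SD over windows was 0.77 in the reference library, 0.29 in the Dam-Lamin A library and 0.36 in the Dam-Lap2b library. The other tiles gave 0.76, 0.38 and 0.40. In the 4 highest windows the reference held 23.7 to 28.9 reads per kb, 0.396 to 0.484 times the level of the rest of the chromosome. Both fusions there stood at 0.904 to 1.14 times their own level in the rest of the chromosome. In the low windows of chromosomes 11 and 19 the reference was at 1.95 and 2.18 times that level. Dam-Lamin A stood at 1.05 and 0.991 times there, and Dam-Lap2b at 0.965 and 0.644 times. Chromosome 2 was different in that Dam-Lamin A was also low, at 0.606 times, with Dam-Lap2b at 0.78 times and the reference at 1.49 times. Between these highest and lowest windows the reads of the reference thus differed more than those of the fusions. The windows of chromosomes 5, 7, 12, 16, 17 and 18 were also below 0 in both profiles. Dam-Lamin A stood there at 0.596 to 0.874 times, Dam-Lap2b at 0.706 to 0.944 times and the reference at 0.991 to 1.47 times. Over all 19 windows Dam-Lamin A exceeded its level in the rest on chromosome 11 alone. Dam-Lap2b did so on 5 chromosomes and the reference on 8. The mean ratios were 0.856, 0.945 and 1.04 in that order. The reference is the denominator of both profiles, so its negative relation to the window means (Pearson's r −0.941 and −0.929 over 19 windows) is in part given by construction.

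**Figure D4:**
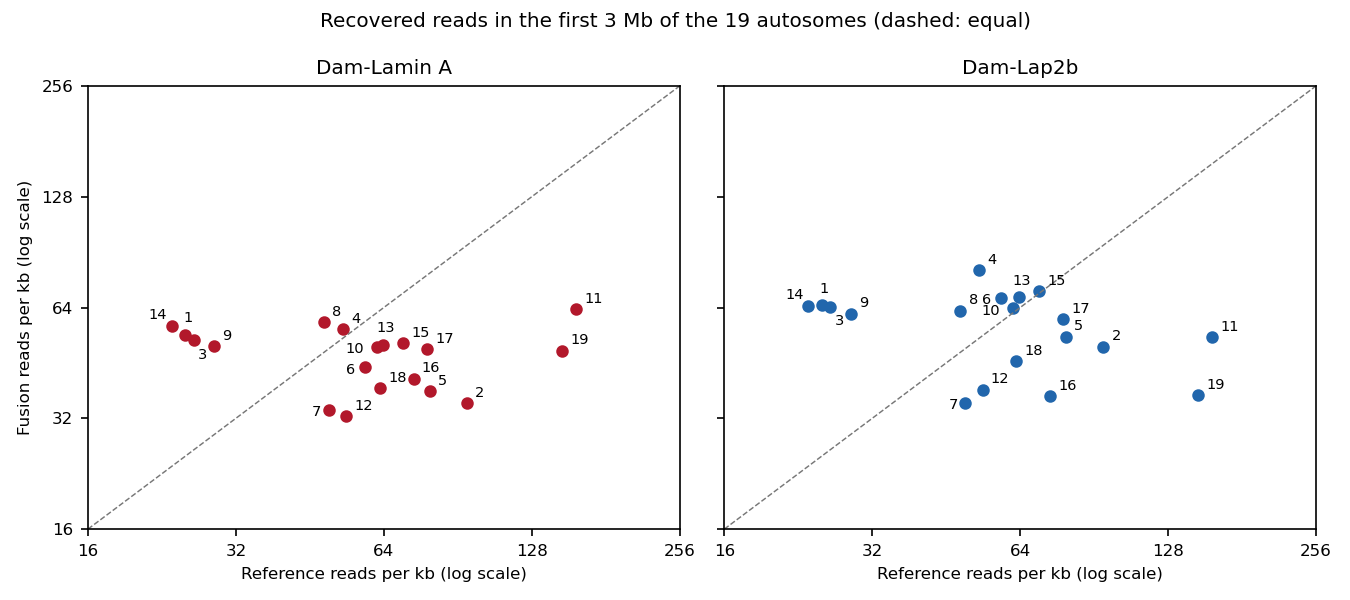
Recovered reads per kb of each fusion against the reference in the first 3 Mb of the 19 autosomes, on log scales, numbered by chromosome, with the dashed line at equal reads. Reference reads spread from 23.7 to 157.5 per kb, while Dam-Lamin A stays between 32.4 and 63.5 and Dam-Lap2b between 35.3 and 81.0.

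The windows also differed in their fragments, which end at GATC sites. They held 2621 fragments per Mb of sequence covered by fragments, against 2512 in the rest of the autosomes. This density is the inverse of the mean fragment length, so denser windows are those with shorter fragments. The median fragment was 246 bp long against 261 bp. Chromosome 7 had the densest window, with 3014 per Mb, and chromosome 17 the sparsest, with 2313 per Mb. Denser windows tended to be higher, with a Pearson's r of 0.643 in the Dam-Lamin A profile and 0.505 in the Dam-Lap2b profile over 19 windows, beside 0.302 and 0.227 over the 784 other tiles. Chromosome 7 went against this, with a mean of −0.30 and −0.29. It also had the largest share of fragments at the constant, 6.34%, against 3.06% over all windows and 2.60% in the rest of the autosomes. The part of fragment density and mappability in the window means was not tested. Stretches over 1 kb without fragments numbered 10 and lay on chromosomes 7, 12, 14 and 16, with lengths of 1.05 to 51.2 kb.

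Averaged over the windows the 2 profiles differed by less than the SD over chromosomes, while single bins and windows differed more. Dam-Lamin A minus Dam-Lap2b averaged −0.16 ± 0.24 (SD over 19 chromosomes) in the windows and −0.07 ± 0.10 in the rest. In the windows it became 0.02 when the profiles were scaled to a median of 0 and equal SD, and −0.43 when weighted by fragment length. The SD of the difference over the bins of a window was 0.32 to 0.71. The windows of chromosomes 6 (−0.52), 2 (−0.47) and 4 (−0.44) were the lowest in this difference, and those of chromosomes 19 (0.35), 11 (0.28) and 14 (0.11) the highest. Dam-Lamin A was the higher in 16% of the bins of chromosome 6 and in 67.0% of those of chromosome 19. Bins with Dam-Lap2b higher by more than 0.5 made up 26.6% of window bins, where 23.7% of all autosomal bins passed. Bins with Dam-Lamin A higher by more than 0.5 made up 10.5%, where 16.4% of all did.

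This difference changed from one end of the chromosomes to the other. In the last 3 Mb of the chromosomes Dam-Lamin A minus Dam-Lap2b averaged 0.26 ± 0.25, and it was above 0 on 16 chromosomes, against 5 in the first 3 Mb and 2 in the next 3 Mb. On 15 of 19 chromosomes the difference was lower in the first than in the last 3 Mb, and first minus last was −0.42 ± 0.40 over all 19. The exceptions were chromosomes 8, 14, 16 and 19. On chromosome 4 the difference was −0.44 in the first and 0.85 in the last 3 Mb, and on chromosome 2 it was −0.47 and 0.51. It held at each level of contact. In bins with a mean of both profiles below −1 the difference was −0.15 in the first and 0.21 in the last 3 Mb. Between −1 and 0 it was −0.30 and 0.19, between 0 and 1 it was −0.21 and 0.16, and above 1 it was −0.03 and 0.37. With 1 library per fusion, a difference of the proteins and one of the libraries cannot be told apart.

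The LAD lists covered less of the windows than of the rest. The list labelled Dam-Lamin A held 41.0% ± 29.5 (SD over 19 chromosomes) of the windows against 52.8% of the rest of the autosomes, and the list labelled Dam-Lap2b held 38.3% ± 28.5 against 49.2%. By bins this was 41.2% and 38.5%, where 53% and 49.4% of all bins were listed. The range over chromosomes was wide, from none on chromosomes 2, 11 and 19 (Dam-Lamin A list) and on chromosome 11 (Dam-Lap2b list) to 95% on chromosome 14 in both lists. On chromosome 1 the lists held 86.4% and 85.8% of the window, with LADs from 3000539 to 4754510 and from 5161282 past the window in the Dam-Lamin A list. On chromosome 9 they held 84.2% and 73.7%. On chromosome 14 both lists had 5 LADs in the window, and 3 of the interruptions lay over stretches without fragments. In all, 52 LADs of the Dam-Lamin A list and 50 of the Dam-Lap2b list touched the windows, with 94 and 90 edges inside them. Of these, 13 edges lay at the same base in both lists, most of them on chromosome 14.

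The lists held least in the outermost 500 kb, although the profiles there were close to their mean over the windows. They held 17.6% and 17.2% of this sequence, against 31.6 to 54.3% in the 5 other steps. When domains were called here with 1 rule, as runs of bins above 0 at least 100 kb long, they covered 36.2% of the first 500 kb in the Dam-Lamin A profile and 38.1% in the Dam-Lap2b profile. Over the whole windows they covered 36.6% and 43.9%, against 43.1% and 48.7% of the rest of the autosomes, a smaller gap than in the deposited lists. Of the 442 bins of the first 500 kb that were above 0 in both profiles, 239 or 54.1% lay in neither list (exact 95% interval 49.3 to 58.8%, counting error only), on 16 chromosomes. Over all autosomes 5.02% of such bins lay in neither list. In the next 500 kb it was 13 of 464, or 2.80%. The bins left out averaged 0.92 and 0.87, and the listed bins of the first 500 kb 1.03 and 1.03. These sets lay largely on different chromosomes, so they are not a comparison of neighbours. On chromosomes 13 and 4 all 50 and all 43 such bins were in neither list. On chromosomes 1 and 14 none of 50 and none of 45 were. Bins of 1 chromosome thus often went together, and the interval does not cover the spread over chromosomes.

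**Figure D5:**
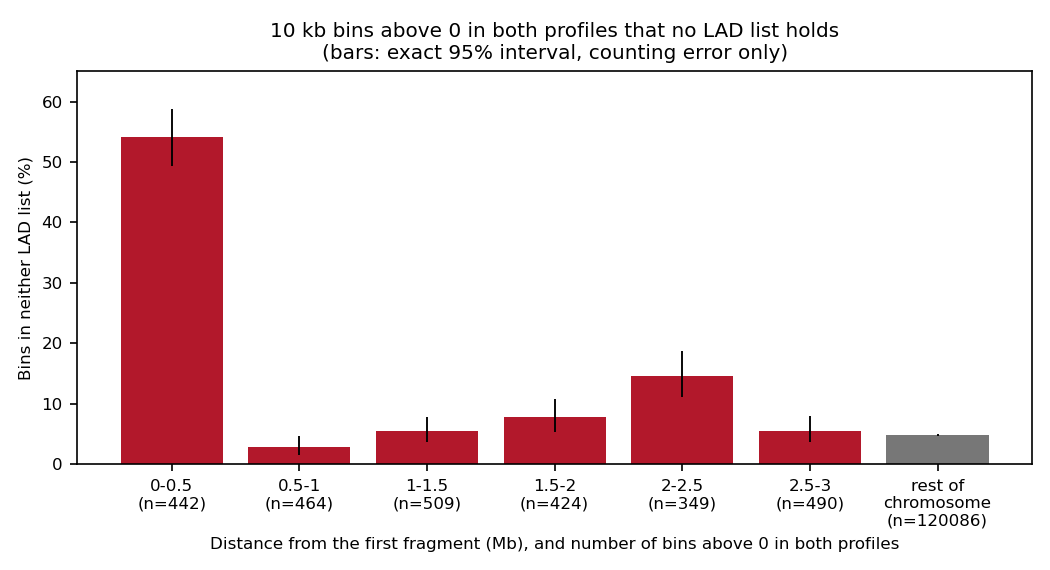
Share of 10 kb bins above 0 in both profiles that lie in neither LAD list, by distance from the first fragment and in the rest of the chromosomes, with exact 95% intervals for counting error. The first 500 kb stand at 54.1%, the other steps between 2.80 and 14.6%, and the rest of the chromosomes at 4.81%.

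The share stayed high in long runs. Among bins in runs of at least 100 kb above 0 in both profiles, 150 of 310 or 48.4% in the first 500 kb were in neither list, against 0.543% over all autosomes and 0.71% from 500 kb to 3 Mb. They lay on 5 chromosomes. The longest such run was the first 520 kb of chromosome 13 (3000227 to 3520226), at 1.38 ± 0.40 and 1.29 ± 0.41 (SD over bins), as high as the windows of chromosomes 14 and 1, and no LAD of either list touched it. In RefSeq order the first coding genes at this end of chromosome 13 are Gdi2, a regulator of Rab GTPases, and Tasor2. Whether they lie within the run is not known, since no gene was placed on the windows. The first 350 kb of chromosome 4 (3000311 to 3350310, 0.86 ± 0.45 and 0.90 ± 0.31) and the first 300 kb of chromosome 3 (3000792 to 3300791, 1.22 ± 0.35 and 1.15 ± 0.23) were likewise in neither list. Chromosome 18 had 2 such runs of 110 kb each, at 3011231 to 3121230 and at 3131231 to 3241230. Not every start was left out. The lists began at the first fragment on chromosomes 1 and 14, and the Dam-Lap2b list also on chromosome 19, where its LAD from 3000005 to 3250773 ended where the long run below 0 began. The last 500 kb of the chromosomes showed a like share, 49.0% of 559 bins above 0 in both profiles. How the authors' caller treated the ends of chromosomes is not given in the sources used here, and its part in this was not tested.

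Stretches in 1 list alone added to the differences between the lists. The longest by far was chromosome 3 from 3312582 to 5014350 (1702 kb), held by the Dam-Lap2b list alone although both profiles were high there, at 1.30 and 1.38 over 4976 fragments. The others among the 5 longest were chromosome 16 from 3231575 to 3585639 (354 kb, 0.51 and 0.31), chromosome 18 from 3521891 to 3778525 (257 kb, 0.37 and 0.34) and chromosome 13 from 4927939 to 5175831 (248 kb, 0.35 and 0.56), all in the Dam-Lamin A list alone. The remaining one was chromosome 19 from 3000005 to 3250773 (251 kb, 0.56 and 0.40), in the Dam-Lap2b list alone. Window bins that only the Dam-Lamin A list held averaged 0.05 ± 0.65 and 0.43 ± 0.42 (SD over 466 bins), so that the Dam-Lap2b profile was the higher, as elsewhere. Window bins that only the Dam-Lap2b list held averaged 0.83 ± 0.67 and 0.92 ± 0.67 (309 bins), and without chromosome 3 they averaged 0.34 ± 0.51 and 0.33 ± 0.48 (139 bins). By sign, the crosswise order of profiles and lists held in the windows only where the Dam-Lamin A list stood alone. Where the Dam-Lap2b list stood alone, the profiles were within 0.1 of each other. Dam-Lamin A minus Dam-Lap2b was −0.38 in the first set and −0.09 in the second (0.01 without chromosome 3). The windows averaged −0.16 over chromosomes, and the 2 sets lay on opposite sides of that mean.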

How the data were processed

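DamID libraries of 3 groups, 1 sample each, were compared as deposited. Per the submitters' processing notes, the genome build was mm9 and Bowtie was among the tools. The counting, the normalization and the LAD caller are not given in the sources used here. The deposited profiles hold log2 values per fragment, and the deposited LAD lists hold start and end positions. No separate Dam Only file was used here. Fragments were put by their start into 10 kb bins counted from the first fragment of the chromosome. Bins with at least 5 fragments were averaged, then chromosomes. Reads were recovered as the smallest whole numbers that gave both log2 values over 1 denominator, found for 99.9968% of fragments. They are lower bounds. No count test was run. The averaging of windows and the recovery of reads were tried on simulated data, with planted window effects and independent noise for each fragment. The steps of 500 kb and 100 kb were not simulated. Windows in full text are the 3 highest, the 3 lowest, the extremes of the difference and those whose sign differed. Chromosomes 8 and 9 were added after their values were seen. The members and lists were chosen with earlier results of these data known. The looks at the first 100 kb, at both chromosome ends and at high bins in neither list were chosen after seeing the data. Gene names come from the RefSeq table of GRCm38.p6 as gene order only, outside that rule. Python 3.11.15 with numpy 2.4.6, pandas 2.3.3 and scipy 1.17.1 was used.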

Additional observations from a re-analysis of the deposited data

Results flagged for a closer look

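On chromosomes 13 and 15 the window moved in opposite directions from the rest of its chromosome in the 2 groups, which is what singled them out. On chromosome 13 the window minus the rest was −0.071 in the Dam-Lamin A profile and 0.12 in the Dam-Lap2b profile. On chromosome 15 it was −0.17 and 0.077. With 1 sample in each group, this difference was not tested.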

How the results depend on the processing

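For 24 results, 195 values were computed under 18 alternatives, of which 166 stayed within a set margin. The margin was the standard error over chromosomes for means, the exact 95% interval for shares of bins and a fixed ratio for counts. The interval takes neighbouring bins as independent. Values near 0 could change sign within the margin. Dam-Lap2b in the first 500 kb went from 0.033 to −0.070 without the first 100 kb. Dam-Lamin A at 2.5 to 3 Mb went from 0.008 to −0.157 weighted by length. The share of window bins above 0 in the Dam-Lamin A profile, the Dam-Lap2b profile and both moved most easily. It became 52.6, 58.0 and 50.4% with medians of fragments, 45.0, 57.6 and 43.8% with weights by length, and 44.7, 45.8 and 40.9% with scaled profiles. The first 5 Mb gave 54.0, 61.4 and 52.2%, and the first 1 Mb gave 51.04% for Dam-Lamin A. Fragments of 200 to 1000 bp gave 47.3% for Dam-Lamin A and 45.6% for both, and bins of 5 and 50 kb gave 45.7 and 49.3% for both. Dam-Lamin A minus Dam-Lap2b in windows changed sign with scaled profiles, to 0.023. It was −0.43 weighted by length, −0.24 from summed reads and −0.25 with fragments of 200 to 1000 bp. Scaled profiles also gave −0.31 and −0.37 in the first 500 kb, −0.17 at 2.5 to 3 Mb in the Dam-Lap2b profile, and 9 chromosomes above 0 in the first 100 kb. The lists held 31.8 and 31.6% of the first 1 Mb, and the Dam-Lamin A list 51.2% of the first 5 Mb. High bins of the first 500 kb in neither list were 48.4% in long runs. Leaving out each chromosome in turn gave 46.3 to 51.6%, 52.8 to 58.2% and 44.4 to 49.8% for the shares of bins above 0, and 48.2 to 61.0% for high bins in neither list. The difference of the window from the rest was then −0.32 to −0.20 and −0.23 to −0.08. It shrank to −0.13 and −0.006 with the first 5 Mb as the window. The causes of these changes were not tested. The profiles were compared on the same fragments, but no paired test over replicates was possible because each group had 1 sample.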

Other observations

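Chromosome X was outside the rule. Its first 3 Mb, from 3000005, averaged 0.89 ± 0.63 (SD over 278 bins) in the Dam-Lamin A profile and 1.14 ± 0.49 in the Dam-Lap2b profile, against 0.39 and 0.74 in the rest of that chromosome. Bins above 0 made up 91.7% and 96.04% of it, against 69.0% and 81.5% of the rest.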
